A study of Bubalus bubalis with 12 samples.

Results

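The genes that carry calcium, protein kinase C (PKC) and cyclic AMP (cAMP) signals were followed in the corpus luteum (CL) of buffalo cows after an injection of a prostaglandin F2α (PGF2α) analogue. Members were taken by a pattern of symbols, which was set with earlier results of these data known. The pattern covered subunits of heterotrimeric G proteins (GNA, GNB, GNG), regulators of G protein signalling (RGS), phospholipases C (PLC), inositol trisphosphate (IP3) receptors (ITPR) and calcium pumps (ATP2A, ATP2B, ATP2C). It also covered calmodulins and calmodulin-dependent kinases (CALM, CAMK), PKC isoforms (PRKC), subunits of protein kinase A (PRKAC, PRKAR), adenylyl cyclases (ADCY), A-kinase anchoring proteins (AKAP) and cyclic nucleotide phosphodiesterases (PDE). The choice gave 94 of the 9155 genes with a probe set of a single symbol on the array, and each gene was represented by the probe set with the highest mean out of the 145 that belonged to members. The pattern also took in 6 symbols of other kinds of protein, namely ADCYAP1R1, CAMK2N2, CAMKMT, PDE4DIP, PRKCSH and RGS9BP, which were kept as a class of their own. The tissue was whole CL from cows on day 11 of the estrous cycle. Cloprostenol was given intramuscularly at 500 µg, and CL were taken from 2 animals at 3 h, 3 animals at 6 h and 3 animals at 18 h. The 4 control animals (0 h) were untreated, and a group given vehicle was not analysed here. Different animals stand behind each time, with 1 GeneChip Bovine Genome Array per animal, so the series does not follow any animal over time. Expression is given as the log2 value of robust multichip average (RMA), and all differences are on that log2 scale. The probes were designed on cattle sequence, which limits how far levels of different probe sets can be compared. Such levels served to pick the probe set of a gene, to filter dim ones and to describe a level as high or low.

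PGF2α acts on the CL through its receptor, PTGFR, which couples to G proteins of the Gq family. These activate phospholipase C beta, which makes IP3 and diacylglycerol. IP3 opens calcium channels of the endoplasmic reticulum, diacylglycerol and calcium activate PKC, and pumps of the sarco/endoplasmic reticulum return calcium to the store. Luteinizing hormone acts through the other arm: its receptor couples to Gs, adenylyl cyclase makes cAMP, cAMP releases the catalytic subunits of protein kinase A from the regulatory ones, and phosphodiesterases break cAMP down. That arm maintains progesterone synthesis in the CL. RGS proteins shorten the life of active G protein alpha subunits, and anchoring proteins hold protein kinase A at sites in the cell.

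The tissue label was checked against 6 genes of luteal steroidogenic cells (STAR, CYP11A1, HSD3B1, FDX1, SCARB1 and LHCGR). Their mean value per array was 13.82 to 14.20 in the controls, 13.35 to 13.90 at 6 h and 12.83 to 13.44 at 18 h. The array medians were 7.09 to 7.17. None of the 6 was called at 6 h, and 4 were called lower at 18 h (FDX1, HSD3B1, LHCGR and STAR). Markers of other cells moved as well. Among all 9155 genes, 6.55% were called higher and 7.66% lower at 6 h, and 7.55% and 8.35% at 18 h. The marker lists are short, and whether any departed from these shares was not tested. At 6 h and at 18 h, 3 of 8 markers of mural and smooth muscle cells and 3 of 9 endothelial markers were called higher, with EMCN of the endothelial list called lower at both times. CD14 at 6 h, and CD14 and CD68 at 18 h, of 7 monocyte and macrophage markers were called higher, and so were 3 of 6 fibroblast markers at 18 h. No lymphocyte, neutrophil or erythrocyte marker was called. Mean values of the mural list were 8.84 to 9.78 in controls, 9.77 to 10.03 at 6 h and 9.90 to 10.27 at 18 h, and those of the monocyte list were 7.96 to 9.01, 8.34 to 8.63 and 8.73 to 9.21. The part of these cells in the values below was not tested, and in whole tissue fewer cells of a type and less RNA per cell cannot be told apart. Control replicates 1 and 4 were closer to each other (r = 0.997 across probe sets) than any other pair of a group. The arrays at 3 h were the least alike (r = 0.973), with 6 members more than 2-fold apart.

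No member was called at 3 h by limma with Benjamini-Hochberg adjustment over 24016 probe sets, and 12 of 94 had an unadjusted p under 0.05. Among all 9155 genes, 999 had an unadjusted p under 0.05 at that time, while 0.0109% were called higher and 0.0218% lower. At 6 h, 6 members were up regulated and 6 were down regulated, that is 12.8% of the members. The background was 6.55% of genes higher and 7.66% lower, 14.2% together, so the share of members called lay near that of all genes. At 18 h, 9 members were up regulated and 9 down regulated, 19.1% of the members, beside 7.55% higher, 8.35% lower and 15.9% together among all genes. The median difference over members was -0.04 at 6 h and -0.01 at 18 h, beside -0.05 and -0.02 over all genes. Whether members were called more often than other genes was not tested, and the calls were evenly split in direction. The 6 h and 18 h comparisons share the control arrays and are not independent of each other. When the arrays of control replicates 1 and 4 were averaged into 1, 6 members were called at 6 h and 10 at 18 h, beside 7.01% and 9.99% of all genes. Single arrays also moved the counts, of members and of all genes together. The 6 h count was 6 without control replicate 1, control replicate 4 or 6 h replicate 2, and 7 without 6 h replicate 1, where 6.11% to 6.96% of all genes were called. The 18 h count was 11 without control replicate 1 or 18 h replicate 3, 10 without control replicate 4 and 9 without 18 h replicate 1, where 8.31% to 10.9% of all genes were called.

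**Figure D1:**
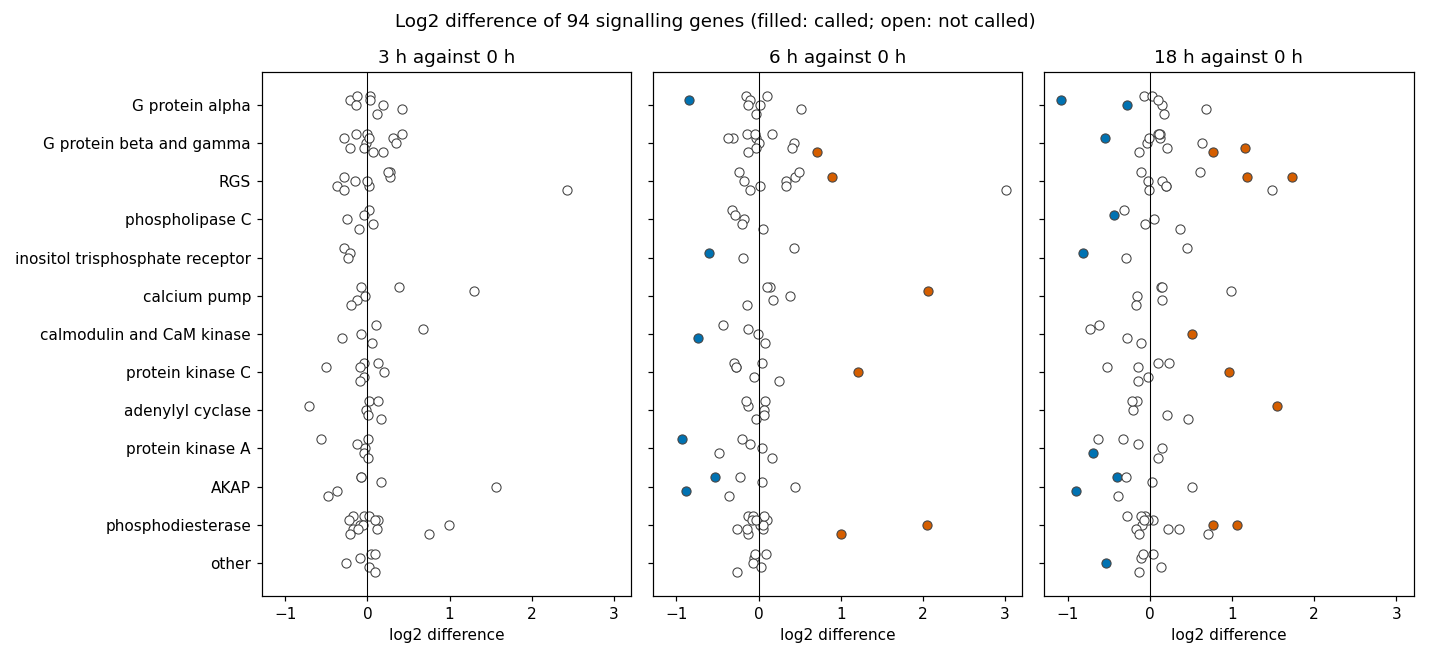
Each point is 1 of the 94 genes, placed by its log2 difference from the controls at 3, 6 and 18 h (panels) and by its class (rows). Filled points were called (orange higher, blue lower), open points were not. No point is filled at 3 h, 12 are at 6 h and 18 at 18 h, and within most classes the called genes stand among others near 0.

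G protein alpha subunits were 8 in number, and 1 was called at 6 h and 2 at 18 h, all lower. Among all genes 14.2% were called at 6 h and 15.9% at 18 h. Each class described here and below is small, so its few calls and their direction were not read as a trait of the class. GNA14, an alpha subunit of the Gq family, was 9.38, 8.78, 8.64 and 9.28 on the control arrays and 8.97 and 8.66 at 3 h. It was 8.66, 7.78 and 8.07 at 6 h and 7.56, 8.30 and 7.96 at 18 h. All 3 arrays at 18 h were thus below every control, while at 6 h replicate 1 was just above the lowest control. GNA14 fell by 0.85 ± 0.25 (SE) at 6 h (adjusted p = 0.0497) and by 1.08 ± 0.25 at 18 h (2.12-fold lower, adjusted p = 0.0165). The 6 h call did not hold without control replicate 1, 2 or 4, 6 h replicate 2 or 3, or 18 h replicate 3 (adjusted p = 0.0651 to 0.202), and the 18 h call did not hold without control replicate 1 or 4 or 18 h replicate 1 (adjusted p = 0.0517 to 0.0834). The other measured subunits of the Gq family were not called, with -0.15 ± 0.11 at 6 h and -0.07 ± 0.11 at 18 h for GNA11, and 0.02 ± 0.13 and 0.15 ± 0.13 for GNA15. GNAS, which encodes the alpha subunit of the G protein that stimulates adenylyl cyclase, was down regulated by a small amount at 18 h (-0.28 ± 0.08, adjusted p = 0.0361), with values of 13.41 to 13.48 against 13.62 to 13.77 in controls. That call was lost without any of 8 single arrays, namely control replicates 1, 2 and 4, 6 h replicates 2 and 3, and 18 h replicates 1, 2 and 3 (adjusted p = 0.0517 to 0.12), and with the mean of the gene's probe sets (-0.19, adjusted p = 0.199). The inhibitory subunit GNAI1 had the highest difference of the class at each time (0.42, 0.51 and 0.68) and was not called.

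Of 12 beta and gamma subunits, 1 was called at 6 h and 3 at 18 h. GNB5, the beta subunit that pairs with a subset of RGS proteins, was 8.41 to 8.62 in controls, 8.81 and 8.62 at 3 h, 9.14, 9.45 and 9.11 at 6 h, and 9.39, 9.46 and 9.05 at 18 h. Each array at 6 h and 18 h exceeded every control. The rise was 0.71 ± 0.13 at 6 h (adjusted p = 0.00651) and 0.77 ± 0.13 at 18 h (adjusted p = 0.0028), and both calls held without any single array. A second GNB5 probe set differed by only 0.09 and 0.30 and was not called. GNG2, a widely expressed gamma subunit, was 9.51, 9.41, 9.56 and 9.53 in controls and slightly under all of these at 3 h (9.27 and 9.31). It was 10.11, 9.72 and 9.90 at 6 h and 10.87, 10.97 and 10.16 at 18 h. The difference was 0.41 ± 0.17 at 6 h (adjusted p = 0.158) and reached 1.16 ± 0.17 at 18 h (2.24-fold, adjusted p = 0.00175). GNG11 moved the other way, from 11.68 to 12.21 in controls to 11.21 to 11.41 at 18 h (-0.55 ± 0.13, adjusted p = 0.0157, and 0.0762 without 18 h replicate 1). The uncalled beta and gamma subunits lay between -0.13 and 0.63 at 18 h.

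RGS3 was the most up regulated member at 18 h. It was 8.83, 9.24, 9.06 and 8.70 in controls and 8.63 and 8.71 at 3 h. It was 9.69, 9.84 and 10.04 at 6 h, and 11.37, 10.35 and 10.35 at 18 h. No array at 6 h or 18 h overlapped the controls, and every 18 h array was above every 6 h array. The rise was 0.90 ± 0.23 at 6 h (adjusted p = 0.0286) and 1.73 ± 0.23 at 18 h (3.32-fold, adjusted p = 0.00102). The 18 h call held without any single array, whereas the 6 h call was lost without control replicate 1 or 4 or any 1 of the 6 h arrays (adjusted p = 0.0614 to 0.0929). The other RGS3 probe set differed by -0.11 at 6 h and -0.05 at 18 h, hence the rise was seen by 1 of 2 probe sets of the gene, and the mean of both gave 0.40 at 6 h (adjusted p = 0.0702) and 0.84 at 18 h (adjusted p = 0.00261). RGS10 was up regulated at 18 h (1.18 ± 0.26, 2.27-fold, adjusted p = 0.0124, and 0.0544 without 18 h replicate 3). Its values were 7.16, 7.70, 8.41 and 7.52 in controls and 8.78, 8.55 and 9.32 at 18 h, and the 6 h arrays lay within the range of the controls (8.11, 8.19 and 8.11). RGS5, a gene known from pericytes, differed by 0.33 ± 0.16 at 6 h and 0.15 ± 0.16 at 18 h and was not called.

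RGS16 had the greatest difference of any member and was not called, and it is described here because of its values. It was 7.09, 7.77, 8.78 and 7.14 in controls and 10.44, 11.68 and 9.97 at 6 h, with every 6 h array above every control. At 18 h it was 9.23, 8.67 and 9.62, and the lowest of these lay under the highest control. At 3 h it was 7.49 on one array and 12.75 on the other. The 6 h difference was 3.00 ± 0.96 (adjusted p = 0.067), and all 3 probe sets of the gene were higher (1.26 to 3.00). It passed the threshold when either 3 h array was left out (adjusted p = 0.00279), when only 0 h and 6 h were fitted (0.00857) and without control replicate 3 (0.0489). Leaving out any other array gave 0.0853 to 0.23. The remaining alternatives gave 0.0504 to 0.156, among them 0.114 with the mean of the gene's probe sets. The standard error is shared by all 4 groups, so the wide gap at 3 h enters it. A lone 3 h array has no spread, so leaving out either one gives the same result between the other groups. For such comparisons, here and below, the fits without either 3 h array are thus 1 check and not 2. The remaining RGS genes not called at 6 h lay between -0.24 and 0.49.

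Phospholipases C and IP3 receptors were changed in few members, and all that were called fell. PLCB4, a beta isoform activated by Gq subunits, was 9.70 to 9.85 in controls, 9.65, 9.37 and 9.47 at 6 h, and 9.31, 9.27 and 9.47 at 18 h, with no overlap at either time. The 6 h difference of -0.29 ± 0.10 was not called (adjusted p = 0.0794), and at 18 h the gene fell by 0.44 ± 0.10 (adjusted p = 0.0136, and 0.0601 and 0.0553 without 18 h replicates 1 and 2). Its other 2 probe sets gave -0.03 and -0.10 at 18 h, and the mean of all 3 gave -0.19 (adjusted p = 0.269). PLCB1 gave -0.33 ± 0.11 at 6 h (adjusted p = 0.0897) and -0.31 ± 0.11 at 18 h (adjusted p = 0.101), neither of them called. Of the IP3 receptors only ITPR2 was called. It was 8.79, 8.32, 9.06 and 8.84 in controls, 8.23, 8.14 and 8.06 at 6 h and 7.95, 7.89 and 8.0 at 18 h. Arrays of both times were under every control, and the 18 h arrays were under all of the 6 h arrays. The fall was 0.61 ± 0.16 at 6 h (adjusted p = 0.0293) and 0.81 ± 0.16 at 18 h (1.75-fold lower, adjusted p = 0.00667). The 6 h call was lost without control replicate 1 or 4 or any 1 of the 6 h arrays (adjusted p = 0.0694 to 0.0923), and a second probe set gave -0.24 and -0.34, not called, with -0.43 for the mean of both at 6 h (adjusted p = 0.0946). ITPR1 differed by 0.43 ± 0.29 and 0.46 ± 0.29, with 6 h values from 11.19 to 12.37. Its other probe sets all went the other way at 6 h (-0.08, -0.26, -0.24 and -0.14). They gave 0.21, 0.05, 0.03 and -0.002 at 18 h, and none of the 5 probe sets of ITPR1 was called. ITPR3 differed by -0.19 ± 0.17 and -0.29 ± 0.17. The difference between ITPR1 and ITPR2 was not tested.

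Among 6 calcium pumps, ATP2A2 was the single one called. It encodes the pump of the sarco/endoplasmic reticulum known as SERCA2. ATP2A2 was 10.38, 10.27, 10.73 and 10.40 in controls, 10.67 and 12.80 at 3 h, 12.42, 12.61 and 12.47 at 6 h, and 11.59, 11.24 and 11.48 at 18 h. The 6 h arrays formed a tight group well above every control, and the 18 h arrays lay between both groups without overlap. It rose by 2.06 ± 0.36 at 6 h (4.17-fold, adjusted p = 0.00652), and 3 of its 4 probe sets were called there. At 18 h the difference was 0.99 ± 0.36 and was not called (adjusted p = 0.103). With either 3 h array left out it was called at 18 h (adjusted p = 0.000791), as it was with only 0 h and 18 h in the fit (0.00295). The probe sets of the gene disagreed at 18 h, with differences from -0.06 to 0.99. ATP2B1, a calcium pump of the plasma membrane, differed by 0.38 ± 0.12 at 6 h (adjusted p = 0.0679) and -0.15 ± 0.12 at 18 h. The other 4 pumps lay between -0.14 and 0.17 at 6 h.

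Of calmodulin and its kinases, CAMK2G fell at 6 h and CAMK2D rose at 18 h. Both encode subunits of calmodulin-dependent kinase II. CAMK2G was 7.80, 7.94, 7.59 and 7.97 in controls and 7.14, 6.77 and 7.35 at 6 h, with no overlap, a fall of 0.74 ± 0.14 (adjusted p = 0.00891). At 18 h it was 7.47 to 7.66 and overlapped the controls (-0.27 ± 0.14, adjusted p = 0.261). A second CAMK2G probe set gave -0.30 at 6 h and was not called. CAMK2D was 6.78 to 7.06 in controls and 7.34 to 7.54 at 18 h (0.51 ± 0.14, adjusted p = 0.0387), and at 6 h it differed by -0.01 ± 0.14. This call was lost without control replicate 1, 2 or 4 or any 1 of the 18 h arrays (adjusted p = 0.0525 to 0.126). CALM3, a calmodulin gene, gave -0.61 ± 0.18 at 18 h and missed the threshold (adjusted p = 0.0503). Its other probe set, at -0.72, was called.

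PRKCD was the only PKC gene called, out of 7. It encodes PKC delta, an isoform that responds to diacylglycerol without calcium. Its values were 6.75, 7.04, 7.79 and 6.78 in controls, 7.44 and 7.13 at 3 h, 8.88, 8.03 and 8.0 at 6 h, and 8.18, 7.89 and 8.11 at 18 h. Control replicate 3 stood close under the lowest treated array at 18 h, and the other controls were well below. It rose by 1.21 ± 0.27 at 6 h (2.31-fold, adjusted p = 0.0161) and by 0.97 ± 0.27 at 18 h (1.96-fold, adjusted p = 0.0363). The 6 h call was lost without control replicate 1 or 4 or 6 h replicate 1 (adjusted p = 0.0504 to 0.0653) and the 18 h call without control replicate 1, 2 or 4 or any 1 of the 18 h arrays (adjusted p = 0.0665 to 0.128). A second and dim PRKCD probe set, with a mean of 4.34, gave -0.01 and -0.05. The calcium-dependent isoforms did not pass the test: PRKCA gave 0.04 ± 0.09 at 6 h and 0.23 ± 0.09 at 18 h (adjusted p = 0.107, and 0.0487 without control replicate 2), and PRKCB gave -0.27 ± 0.26 and -0.52 ± 0.26.

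ADCY2 was the single adenylyl cyclase called, out of 6, and it behaved differently at 18 h from all earlier times. The gene encodes a cyclase stimulated by Gs and by beta gamma subunits. It was 4.96, 4.70, 5.53 and 5.41 in controls, 4.44 on both arrays at 3 h, 4.95, 5.14 and 4.99 at 6 h, and 6.82, 6.60 and 6.68 at 18 h. The 18 h arrays were above all 9 others, and the 3 h arrays were below every other array. The rise at 18 h was 1.55 ± 0.17 (2.92-fold, adjusted p = 0.000464), while the 3 h difference of -0.71 ± 0.20 was not called (adjusted p = 0.295). ADCY2 lay in the lower part of the range of values, at the 10.2 percentile of all genes by its mean, and the filter on the dimmest 40% of probe sets removes it. The other 5 cyclases lay between -0.21 and 0.46 at 18 h.

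The regulatory subunits of protein kinase A contained both calls of that class, and both were falls. PRKAR2B, the type II beta subunit, was 10.28, 10.15, 10.55 and 10.22 in controls, 9.93 and 9.53 at 3 h, 9.54, 9.07 and 9.48 at 6 h, and 9.72, 10.05 and 9.22 at 18 h. All treated arrays were under every control. The fall was 0.94 ± 0.19 at 6 h (1.91-fold lower, adjusted p = 0.0124, and 0.0616 without 6 h replicate 2). At 3 h the difference was -0.57 ± 0.22 and at 18 h it was -0.63 ± 0.19, neither of them called (adjusted p = 0.428 and 0.0558). At 18 h it passed the threshold without 18 h replicate 2 (adjusted p = 0.0276) and without either 3 h array (0.0459). PRKAR1B was 8.15, 8.0, 7.30 and 7.86 in controls and 7.18, 7.07 and 7.15 at 18 h, with control replicate 3 close to the treated arrays. It fell by 0.69 ± 0.17 at 18 h (adjusted p = 0.0245), a call lost without control replicate 1, 2 or 4 or any 1 of the 18 h arrays (adjusted p = 0.0609 to 0.0788). The catalytic subunits PRKACA and PRKACB gave -0.20 ± 0.13 and -0.11 ± 0.12 at 6 h, and -0.33 ± 0.13 and -0.14 ± 0.12 at 18 h. PRKACA was called at 18 h without control replicate 3 (adjusted p = 0.0188) and in none of the other fits that left out an array. PRKAR1A, the widely expressed type I alpha subunit, gave 0.04 ± 0.11 and 0.15 ± 0.11.

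The AKAP genes called were lower, 2 of 6 at 6 h and 2 at 18 h, beside 14.2% and 15.9% of all genes called. AKAP5, which anchors protein kinase A together with PKC and calcineurin at the plasma membrane, was 6.62, 7.24, 6.81 and 6.82 in controls and 6.33 and 6.67 at 3 h. It was 5.94, 6.28 and 5.75 at 6 h and 5.90, 5.74 and 6.29 at 18 h. Every array at 6 h and 18 h was below every control. It fell by 0.89 ± 0.18 at 6 h (adjusted p = 0.0124) and by 0.90 ± 0.18 at 18 h (adjusted p = 0.0092), both of its probe sets were called at both times, and both calls held without any single array. AKAP8L, a nuclear protein of the AKAP8 family, fell by 0.53 ± 0.15 at 6 h (adjusted p = 0.0436), and 7 single arrays each ended the call when left out (control replicates 1, 2 and 4, the 6 h arrays, and 18 h replicate 3, adjusted p = 0.0611 to 0.142). The mean of its probe sets gave -0.40 (adjusted p = 0.102). AKAP10, an anchoring protein found at mitochondria, fell by 0.40 ± 0.10 at 18 h (adjusted p = 0.0205), a call lost without control replicate 1 or 4 or 18 h replicate 2 or 3 (adjusted p = 0.0533 to 0.0844). AKAP4, known from the sperm tail, was uneven within groups: 8.53 on 3 h replicate 3, 7.55 on 18 h replicate 3, 6.86 on 6 h replicate 1, and 5.40 to 6.04 on the other arrays.

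The phosphodiesterases called were higher, 2 of 14 at 6 h and 2 at 18 h (14.3% each), with PDE8A in both. This share lay near the 14.2% and 15.9% of all genes called at those times. PDE8A, a cAMP-specific enzyme of high affinity, was 8.05, 7.92, 8.27 and 7.86 in controls, 8.29 and 9.74 at 3 h, 9.98, 10.26 and 9.98 at 6 h, and 9.39, 8.80 and 9.05 at 18 h. Every treated array was above every control, although 3 h replicate 1 was so by little, and the 6 h arrays were the highest. The rise was 2.05 ± 0.27 at 6 h (4.14-fold, adjusted p = 0.00201) and 1.06 ± 0.27 at 18 h (2.08-fold, adjusted p = 0.0283). The 6 h call held without any single array, and the 18 h call was lost without control replicate 1, 2 or 4 or 18 h replicate 1 or 3 (adjusted p = 0.064 to 0.125). PDE5A, which breaks down cyclic GMP, was 6.49, 6.95, 6.99 and 6.71 in controls, 7.04 and 8.03 at 3 h, 7.94, 8.0 and 7.44 at 6 h, and 7.53, 7.64 and 7.30 at 18 h, again with every treated array above every control. It rose by 1.0 ± 0.22 at 6 h (2.01-fold, adjusted p = 0.0171), and that call was lost without control replicate 1 or 4 or 6 h replicate 1 or 2 (adjusted p = 0.0502 to 0.0778). The 18 h difference of 0.70 ± 0.22 missed the threshold (adjusted p = 0.0647). PDE6C, known from cone photoreceptors, rose by 0.77 ± 0.14 at 18 h (adjusted p = 0.00413) at values near the bottom of the scale, 4.65 to 5.14 against 3.95 to 4.17 in controls. The 12 phosphodiesterases not called at 6 h lay between -0.27 and 0.10.

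Of the 6 members of other kinds, CAMKMT, a methyltransferase that acts on calmodulin, fell by 0.53 ± 0.14 at 18 h (adjusted p = 0.0329). That call was lost without control replicate 2 or 4 or any 1 of the 18 h arrays (adjusted p = 0.0511 to 0.148). The mean of both its probe sets gave -0.36 (adjusted p = 0.108). The other 5 lay between -0.14 and 0.14 at 18 h. PDE4DIP, which binds a phosphodiesterase, was among these with 0.14, while another of its 5 probe sets, at 0.68, was called (adjusted p = 0.0397).

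**Figure D2:**
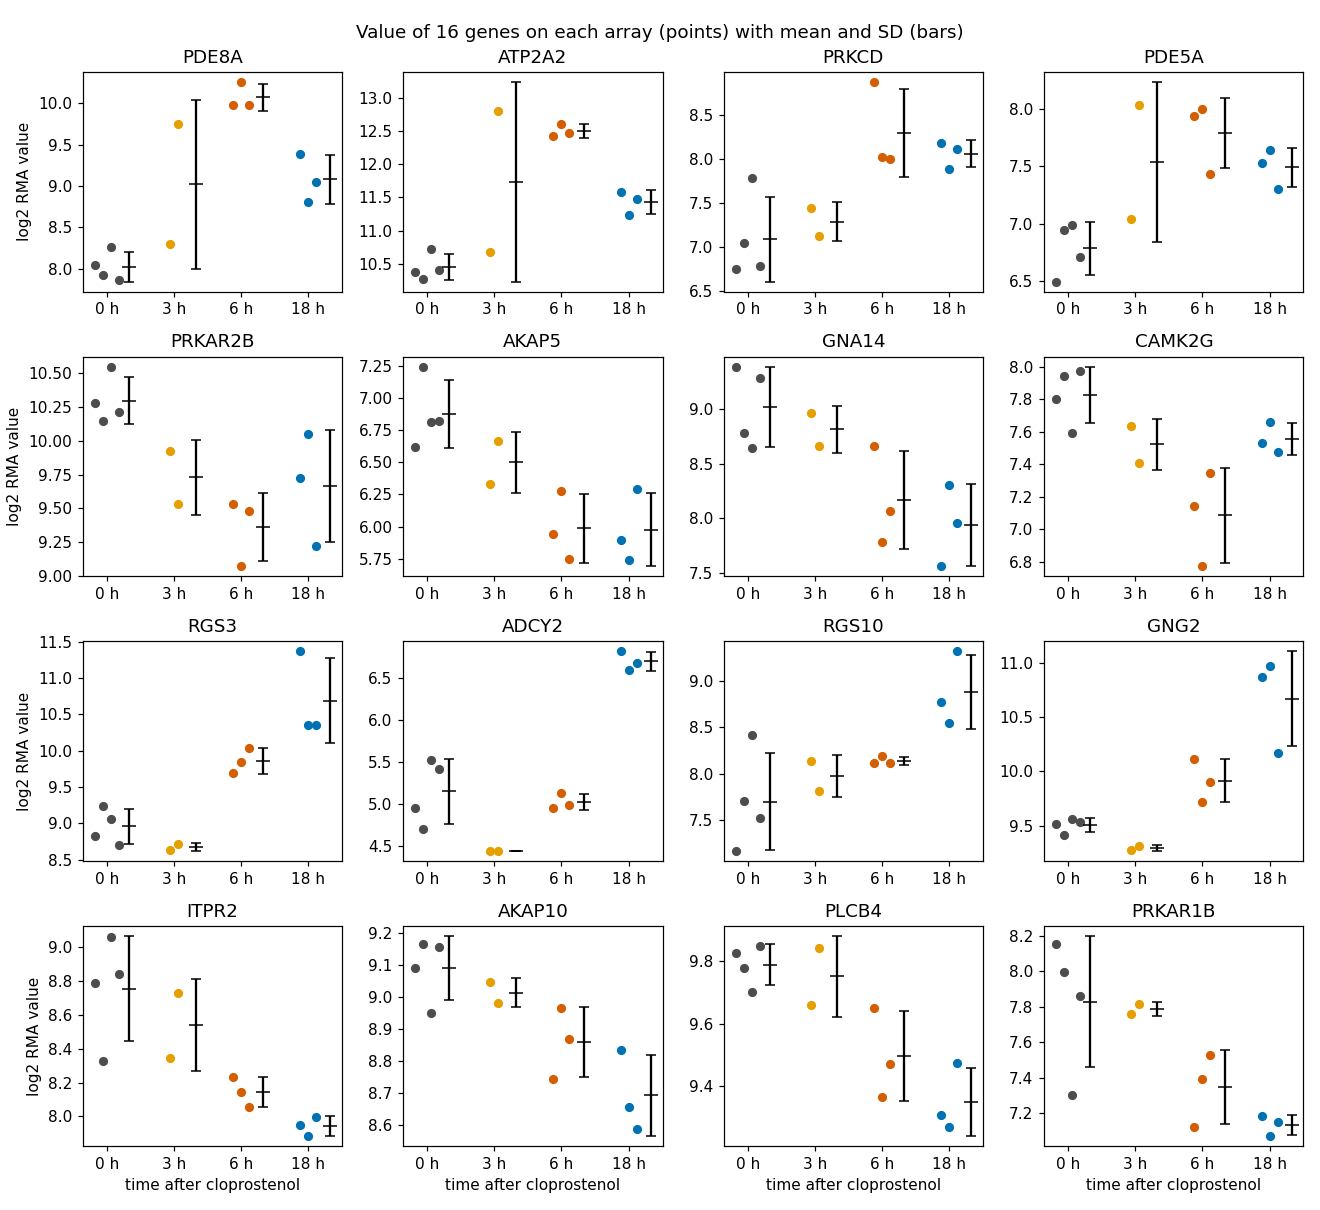
Each panel shows the log2 RMA value of 1 gene on every array (points) at 0, 3, 6 and 18 h, with the group mean and SD as a bar beside them, and the vertical axes differ between panels. The 6 h arrays are the highest for PDE8A (9.98 to 10.26) and the 18 h arrays for RGS3, ADCY2 and GNG2, while ITPR2, AKAP10, PLCB4 and PRKAR1B have their lowest means at 18 h.

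The arrays at 3 h disagreed for RGS16 and for 3 of the members that rose at 6 h. Replicate 3 was above the control mean by 5.06 for RGS16, 2.36 for ATP2A2, 1.72 for PDE8A and 1.24 for PDE5A, and replicate 1 differed from it by -0.20, 0.23, 0.27 and 0.26. For these 4 genes replicate 3 was thus near or past the mean of the 6 h arrays, and replicate 1 near the controls. PRKCD, which also rose at 6 h, did not show this, with replicates 1 and 3 at 0.35 and 0.04 above the control mean. In the same animals AKAP4 differed from the control mean by 2.81 and 0.33. CAMK1, a calmodulin-dependent kinase, and GNG12, a gamma subunit, went the other way: replicate 1 was 1.34 and 1.05 above the control mean, and replicate 3 was at 0.02 and -0.36. With replicate 1 left out, 5 members were called higher at 3 h (ATP2A1, ATP2A2, PDE5A, PDE8A and RGS16), among them ATP2A2 (adjusted p = 0.00041) and PDE8A (0.00433), and 2.65% of all genes were called. In that fit 3 h is a lone array taken to vary like the other groups. With replicate 3 left out, no member was called at 3 h. Neutrophil markers were also the most uneven at 3 h, with means of 9.63 on replicate 1 and 12.08 on replicate 3 and 10.43 to 11.47 elsewhere, and their part in the gap was not tested.

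**Figure D3:**
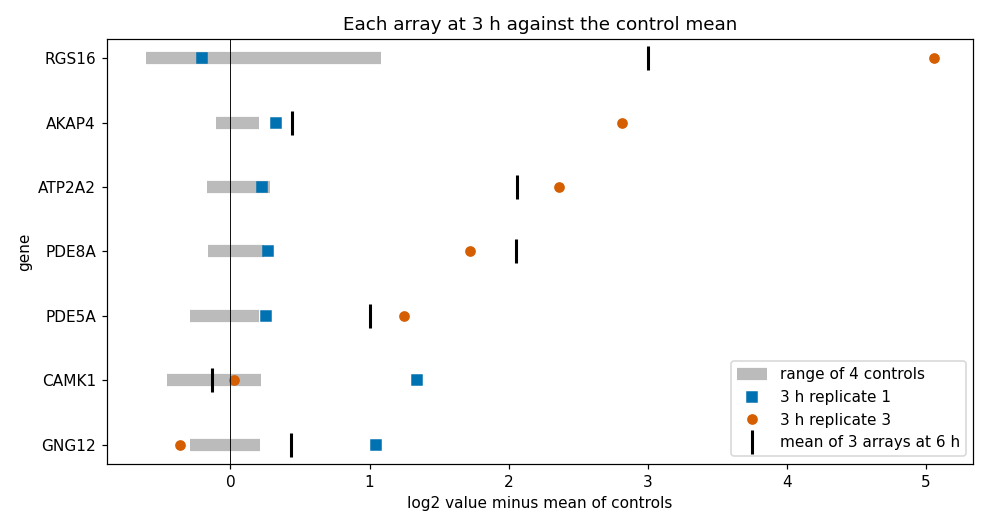
For 7 genes (rows), the value of each 3 h array is shown as its log2 difference from the control mean, with the range of the 4 controls as a grey bar and the 6 h mean as a black tick. Replicate 3 (orange) lies far to the right for RGS16 (5.06), AKAP4 (2.81), ATP2A2 (2.36) and PDE8A (1.72), where replicate 1 (blue) lies within or beside the control range, and the order is turned for CAMK1 and GNG12.

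Between treated times few members passed the test. At an unadjusted p under 0.05, 19 of 94 members and 1396 of 9155 genes differed between 6 h and 3 h. No member was called there, beside 0.153% of all genes called higher and 0.0765% lower. Without 3 h replicate 3 there were 5, namely ATP2A2, CAMK1, GNB2, PDE8A and RGS16, near the 5.76% of all genes called in that fit, and without 18 h replicate 1 there was 1, RGS3. The fit without 18 h replicate 1 called 0.229% of all genes between 6 h and 3 h. Between 18 h and 3 h, 4 members were higher and 1 was lower (5.32%), beside 2.29% and 1.49% of all genes (3.78% together). ADCY2 rose by 2.26 ± 0.21 (adjusted p = 0.000694), RGS3 by 2.02 ± 0.27 (0.00394), GNG2 by 1.38 ± 0.20 (0.00651) and PDE6C by 0.83 ± 0.16 (0.0227). CAMK1 fell by 1.41 ± 0.32 (adjusted p = 0.0428), a call that rests on the 3 h arrays of 10.02 and 8.70 against 7.76, 8.20 and 7.90 at 18 h. It was lost in 10 of 12 fits that left out 1 array, all but those without control replicate 3 and without 3 h replicate 3 (adjusted p = 0.0571 to 0.146), and the mean of its 3 probe sets gave -0.50 (adjusted p = 0.113). That for PDE6C was lost without 3 h replicate 1 or 18 h replicate 1 (0.087 and 0.0541). Between 18 h and 6 h, ADCY2 alone was called, higher by 1.67 ± 0.19 (adjusted p = 0.00584), which is 1.06% of the members beside 0.371% of all genes higher and 0.273% lower. The members highest at 6 h were lower at 18 h without passing the test, with -0.99 ± 0.29 for PDE8A (adjusted p = 0.188) and -1.07 ± 0.39 for ATP2A2 (adjusted p = 0.29). When either 3 h array was left out, both were called lower at 18 h than at 6 h, along with the higher ADCY2 and PDE6C.

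Genes that act before and after the members were read from the same fit. Among all 9155 genes, 14.2% were called at 6 h and 15.9% at 18 h. The lists are short, and some lay near these shares, such as calcium entry, release and exchange with 14.3% and 19%. Whether any list was called more often than other genes was not tested. Of 16 receptors and desensitization genes measured, 2 were higher and 2 lower at 6 h, and 4 were lower at 18 h. The receptor of PGF2α, PTGFR, fell at both times (-0.46 ± 0.11, adjusted p = 0.0187, and -1.31 ± 0.11, adjusted p = 8.14e-05), as did the Gq-coupled angiotensin receptor AGTR1 (-1.0 ± 0.19, adjusted p = 0.00814, and -1.49 ± 0.19, adjusted p = 0.000818). LHCGR, the Gs-coupled receptor of luteinizing hormone and also a luteal marker above, fell by 2.76 ± 0.61 at 18 h (adjusted p = 0.0128), and the receptor kinase GRK5 by 0.56 ± 0.16 (0.045). The Gs-coupled prostaglandin E2 receptor PTGER2 rose at 6 h (1.11 ± 0.22, adjusted p = 0.0105), and so did ARRB1, an arrestin (0.55 ± 0.15, 0.0393). Of 21 genes of calcium entry, release and exchange, 3 rose at 6 h, all of them TRPC channels of the plasma membrane: TRPC4 by 1.68 ± 0.29 (adjusted p = 0.00557), TRPC6 by 1.0 ± 0.25 (0.0256) and TRPC1 by 0.80 ± 0.18 (0.0164). At 18 h TRPC1 and TRPV2 were higher (0.66 and 0.37), and MICU2, a regulator of mitochondrial calcium uptake, and PLN, the phospholamban that restrains SERCA2, were lower (-0.72 and -0.86). Calcineurin and NFAT genes numbered 10, and of these only RCAN3, a calcineurin regulator, was called (0.82 ± 0.23 at 18 h, adjusted p = 0.0391). The highest differences of this list were greater and not called (1.89 at 3 h, 1.94 at 6 h and 1.77 at 18 h). Of 8 genes of PKC substrates and diacylglycerol, MARCKSL1 rose at 6 h and 18 h (0.98 ± 0.19 and 1.15 ± 0.19). Of 8 cAMP effectors and inhibitors, RAPGEF3, the exchange factor EPAC1 that cAMP activates without protein kinase A, fell at both times (-0.93 ± 0.16 and -0.96 ± 0.16), and the transcription factor ATF1 rose at 6 h (0.43 ± 0.11, adjusted p = 0.027).

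Among members known from leukocytes, some varied among the control animals. PRKCB, PRKCQ and RGS1, which are abundant in lymphocytes and were picked after their values were seen, were highest on control replicate 3. PRKCB was 10.12 there and 9.11 to 9.56 on the other control arrays, PRKCQ was 7.04 there and 5.84 to 6.23 on the others, and RGS1 was 8.41 there and 7.31 to 7.69 on the others. That array also had the highest mean of the 6 lymphocyte markers (6.90 against 6.41 to 6.58) and of the 7 monocyte markers (9.01 against 7.96 to 8.15) among the controls. RGS10, RGS16 and PRKCD were highest there among controls as well, by 0.71, 1.01 and 0.75 over the next. PRKCH, RGS13, RGS14 and GNA15, also known from leukocytes, lay on that array within the range of the other controls. None of PRKCB, PRKCQ and RGS1 was called at any time. With control replicate 3 left out, 16 members were called at 6 h and 21 at 18 h, beside 18.3% and 19.5% of all genes. RGS10, a regulator known from macrophages and microglia, was highest at 18 h, where the mean of the monocyte list was 8.73 to 9.21, and the part of these cells in its rise was not tested.

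**Figure D4:**
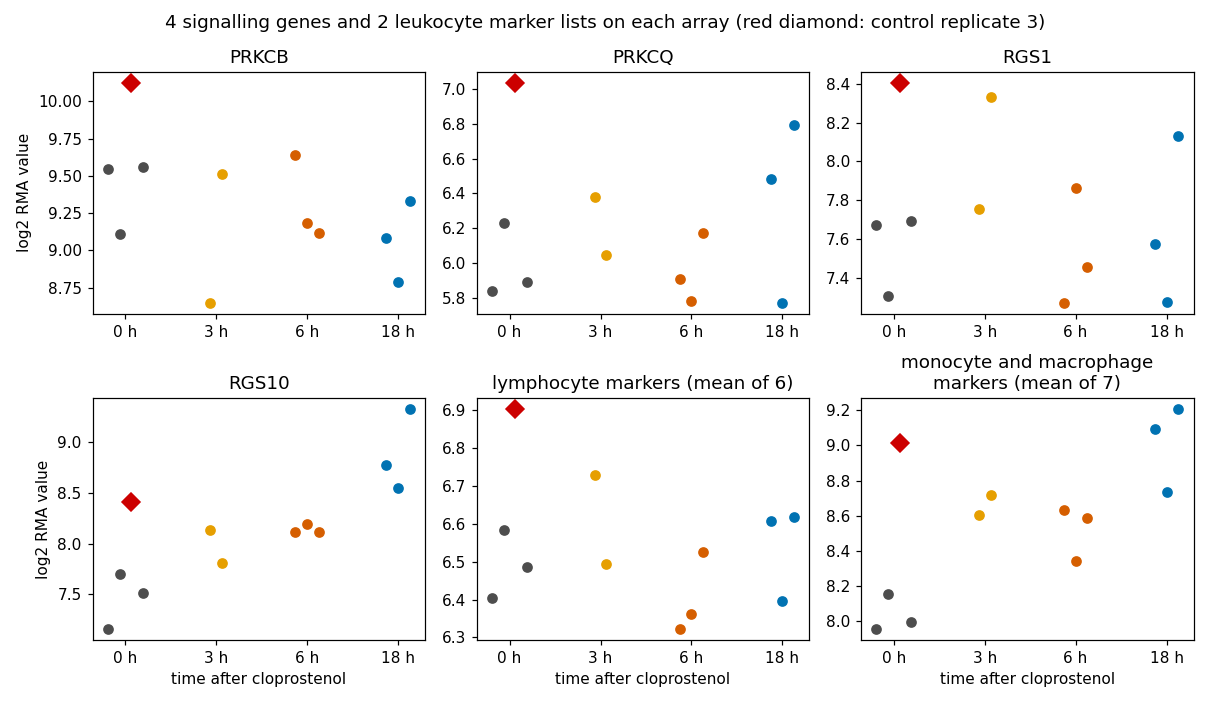
The log2 RMA value of PRKCB, PRKCQ, RGS1 and RGS10 and the mean of the lymphocyte and the monocyte and macrophage markers are shown for each array by time, with control replicate 3 as a red diamond. The diamond is the highest control in all 6 panels (10.12 for PRKCB), and for PRKCB, PRKCQ and RGS1 it is the highest of all 12 arrays.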

How the data were processed

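Total RNA of frozen CL was hybridised to Affymetrix arrays, and the deposited table holds log2 RMA values, per the labels. RMA corrects background, makes the arrays comparable and summarises probes, and it compresses differences at low signal. Its version is not given in the sources used here, nor is the chip definition. Of 24128 probe sets, 112 controls were left out, and 24016 were tested. Symbols came from the platform annotation, which gave 1 symbol for 13292 probe sets, several for 86 and none for 10638. A model of 4 group means over the 12 arrays was fitted in R 4.3.3 with limma 3.58.1 (lmFit, contrasts.fit, eBayes, two-sided). P-values were adjusted by Benjamini-Hochberg within each comparison over 24016 probe sets, and a gene was called at an adjusted p under 0.05. Steps were tested on simulated data. Background percentages are over the representative probe sets of 9155 genes. The members and lists were chosen with earlier results of these data known. Genes were named by rule: every called member of a comparison with 0 h (at most 15 in a direction), at most 6 in a direction between treated times, and a fixed list. Of that list GNAQ, PLCB3, PRKCE, ADCY3, ADCY9, PDE4B, PDE4D, RGS2 and AKAP12 had no single-symbol probe set and were not analysed here. RGS16, AKAP4, ATP2A1, GNB2, GNA15, PDE4DIP, PRKCH, RGS13, RGS14, GNAI1, CALM3, GNG12, PRKCQ and RGS1 were named after their values were seen. Alternatives were another filter, scaling, fit, gene summary, a replicate block and leaving out each array. The number of arrays limits the precision. No sequences are given, and promoters were not analysed here.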

Additional observations from a re-analysis of the deposited data

Results flagged for a closer look

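ADCY2 differed between treated times: it was higher at 18 h than at 6 h by 1.67 ± 0.19 on the log2 scale (adjusted p = 0.00584, limma), with 3 of 3 arrays at 18 h above 3 of 3 at 6 h. Against 0 h the difference was -0.13 ± 0.17 at 6 h and 1.55 ± 0.17 at 18 h. The call held in the 12 fits that left out 1 array and in the 8 other alternatives that kept the gene (highest adjusted p = 0.0423), and the filter on dim probe sets removes the gene. No control array stood apart in the 35 named members by Dixon's criterion. With only 4 control arrays a gap must be very wide to pass, so this cannot show that the controls were alike. RGS16, PRKCQ and RGS1, all highest among controls on replicate 3, were not among the 35. Across probe sets, control replicate 3 was the least like the other controls (r = 0.982 to 0.984). The other control pairs had r = 0.989 to 0.997.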

How the results depend on the processing

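No call of a named member changed direction under any alternative. Of 749 values of the 36 called member and comparison pairs under the alternatives, 604 kept the call and 145 lost it, and 12 pairs kept it throughout: PDE8A, GNB5 and ATP2A2 at 6 h, ADCY2, RGS3, GNG2, GNB5, PDE6C, ITPR2 and AKAP5 at 18 h, and ADCY2 in 18 h against 3 h and against 6 h. ADCY2, PDE6C and AKAP5 are absent under the filter on dim probe sets, which leaves 64 of 94 members. Leaving out 1 array at a time gave 0 to 5 members called at 3 h, 6 to 16 at 6 h, 9 to 24 at 18 h, 0 to 5 in 6 h against 3 h, 3 to 7 in 18 h against 3 h and 1 to 4 in 18 h against 6 h. In the same fits 0% to 2.65%, 6.11% to 19%, 8.31% to 20.9%, 0.0874% to 5.76%, 1.23% to 7.42% and 0.0546% to 1.55% of all genes were called. Averaging control replicates 1 and 4 gave 6 at 6 h and 10 at 18 h (7.01% and 9.99% of all genes). In 18 h against 3 h, the dim filter gave 3 of 64 members, beside 5.47% of the genes in that fit. A fit of only the compared groups gave 1, beside 0.819% of all genes. In 18 h against 6 h, the dim filter gave 0, beside 0.988% of the genes in that fit. There were 2 with trend and robust settings and 2 with only the compared groups, beside 0.677% and 0.623% of all genes. With 1 probe set per gene in the fit there were 2, and 2 with the mean of a gene's probe sets (0.939% and 0.885%). The cause of these shifts was not tested, other than that fewer arrays or genes enter some fits. Same-numbered arrays showed little likeness: of 15 such pairs, 3 had deviations from the group means that correlated over 0.1 (range -0.26 to 0.19). In 10 of 30 combinations an array matched its own number best. Deviations from the mean of a small group are tied to each other, so these values cannot exclude a factor shared by replicate number. With a replicate block, 3 members were called at 6 h (all higher), 8 at 18 h (5 higher, 3 lower) and 3 in 18 h against 3 h (all higher). The shares of all genes were 4.51%, 7.89% and 1.13%. In 18 h against 6 h 1 member was called, beside 0.0437% of all genes, and 0 members in the other comparisons. The arrays give no depth, and values near the bottom of the scale, as for ADCY2 and PDE6C, limit how far a difference can be read.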
